A study of Rattus norvegicus with 23 samples.

Results

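The 10 miRs described here are known as marks of blood cells, liver and endothelium, and they were followed in rat muscle-derived stem cells (MDSC) cultured with or without rat serum. They were taken by name from the 792 miR entries of the miR global transcriptional signature (miR-GTS), where they are listed as rno-miR-451-5p, rno-miR-144-3p, rno-miR-144-5p, rno-miR-486, rno-miR-223-3p, rno-miR-142-3p, rno-miR-142-5p, rno-miR-150-5p, rno-miR-122-5p and rno-miR-126a-3p. The prefix rno, for rat, is left out below. All of them had reads in at least 1 of the 23 libraries, as did 640 entries in all. The question was how their raw reads and their share of the reads differed between the 7 libraries of cells given 5% rat serum and the 16 given none.

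Cells were exposed for 4 days. Female cells from the pelvic floor muscle of 12 weeks old rats were ZF4-SC, of the obese Zucker fatty strain, and ZL4-SC, of its lean counterpart, and each was given serum of obese female rats (ZFS), serum of lean female rats (ZLS) or no addition (C). Male cells came from limb muscle. ED-MDSC (early diabetes, 12 weeks old Zucker fatty rats) were given serum of obese rats (ozs), serum of lean rats (lzs), albumin, cyclodextrin, cholesterol or no addition. ND-MDSC (labelled non-diabetic) were given ozs or none, and LD-MDSC (late diabetes, 32 weeks old Zucker fatty rats) none. In the paper the male serum donors were 32 weeks old, and more than 1 age is given for the female donors. A further 8 ZF4-SC libraries, none with rat serum, had palmitate (1 and 0.5 mM), albumin, cholesterol (100 and 50 mg/dl), cyclodextrin in duplicate or no addition. ZFS and ozs are called OZ serum below, and ZLS and lzs LZ serum. The female cells had been depleted of cells bearing CD45, CD11b, CD31 and Sca1, enriched by flow cytometry and cultured to passage 10 to 15 in a medium that itself contained fetal bovine serum, in C as well, and the wells were rinsed once before lysis. The male cells were, per the study's methods, pre-plated and selected for Sca1, as cells bearing Sca1 and CD34. Nearly every condition is 1 library, so the spread behind a single condition is unknown, and cultures of 1 stem cell share their source.

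A miR is a short RNA that, loaded into an Argonaute protein, pairs through its seed (bases 2 to 8) with target mRNAs and lowers their output. In blood, miRs circulate inside cells, in vesicles and bound to protein, and erythrocytes, platelets, leukocytes and liver are known sources. The miR-144 and miR-451 hairpins are expressed together in erythroid cells, where miR-451 is cut by Argonaute rather than Dicer. miR-486 is abundant in erythrocytes and is also made in striated muscle. miR-223 marks myeloid cells and platelets, miR-142 the leukocytes at large and miR-150 mature lymphocytes. miR-122 is the main miR of hepatocytes, and miR-126, which lies within the Egfl7 gene, marks endothelium.

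The mature sequences of 8 of the 10 members were found in RefSeq (rat build GRCr8) and are printed 5′ to 3′ with the seed in capitals, to show that the members are recognised by unrelated seeds. No seed was shared with another of the 685 matrix entries that had a sequence. The list gives the erythroid miRs first, then those of leukocytes, liver and endothelium.
miR-451-5p: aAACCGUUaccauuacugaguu
miR-144-3p: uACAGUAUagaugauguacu
miR-144-5p: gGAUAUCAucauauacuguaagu
miR-223-3p: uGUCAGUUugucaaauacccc
miR-142-3p: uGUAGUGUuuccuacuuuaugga
miR-142-5p: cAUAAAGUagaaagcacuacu
miR-122-5p: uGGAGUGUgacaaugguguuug
miR-126a-3p: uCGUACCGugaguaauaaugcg

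The hairpins of miR-144 (chr10:63459397-63459479) and miR-451 (chr10:63459569-63459640) lie on the plus strand of chromosome 10 with 89 bases between them. The miR-142 hairpin, which gives both of its arms, lies farther along the same strand (chr10:73055104-73055190). The miR-122 hairpin lies on chromosome 18 (chr18:61028817-61028901) and that of miR-223 on chromosome X (chrX:65151383-65151492). The sequence of miR-126a-3p is filed under the Mir126b locus on chromosome 3, whose synonyms include Mir126a.

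The libraries were deposited as 3 count matrices that differ in depth and in miR-GTS, and whether these were separate sequencing batches is not given in the sources used here. The serum matrix (ZF4-SC and ZL4-SC with C, ZFS and ZLS, and ND-MDSC with C and ozs) held 6492161 to 13271580 reads per library, the male matrix (ED-MDSC and LD-MDSC) 1701574 to 3840523, and the lipid matrix (the other ZF4-SC) 104902 to 4783062. No stem cell had rat serum in more than 1 matrix, so the matrix and the stem cell cannot be told apart. Set against the labelled cell type, 6 miRs of stromal cells together made 182778 to 571677 reads per 1000000 miR reads (rpm) in every library, whereas 7 striated muscle miRs summed to at most 11.8 rpm. The ED-MDSC-ozs and ED-MDSC-lzs libraries stood apart from the other ED-MDSC libraries across the whole miR-GTS and not only in the 10 miRs. In them miR-146a-5p had 368 and 142 rpm, against 4859 to 6669 in the 4 ED-MDSC libraries without rat serum, and the neuronal miR-9a-5p was 3.86 ± 0.38 higher on the log2 scale (SE, adjusted p = 7.64e-05 in edgeR).

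**Figure D1:**
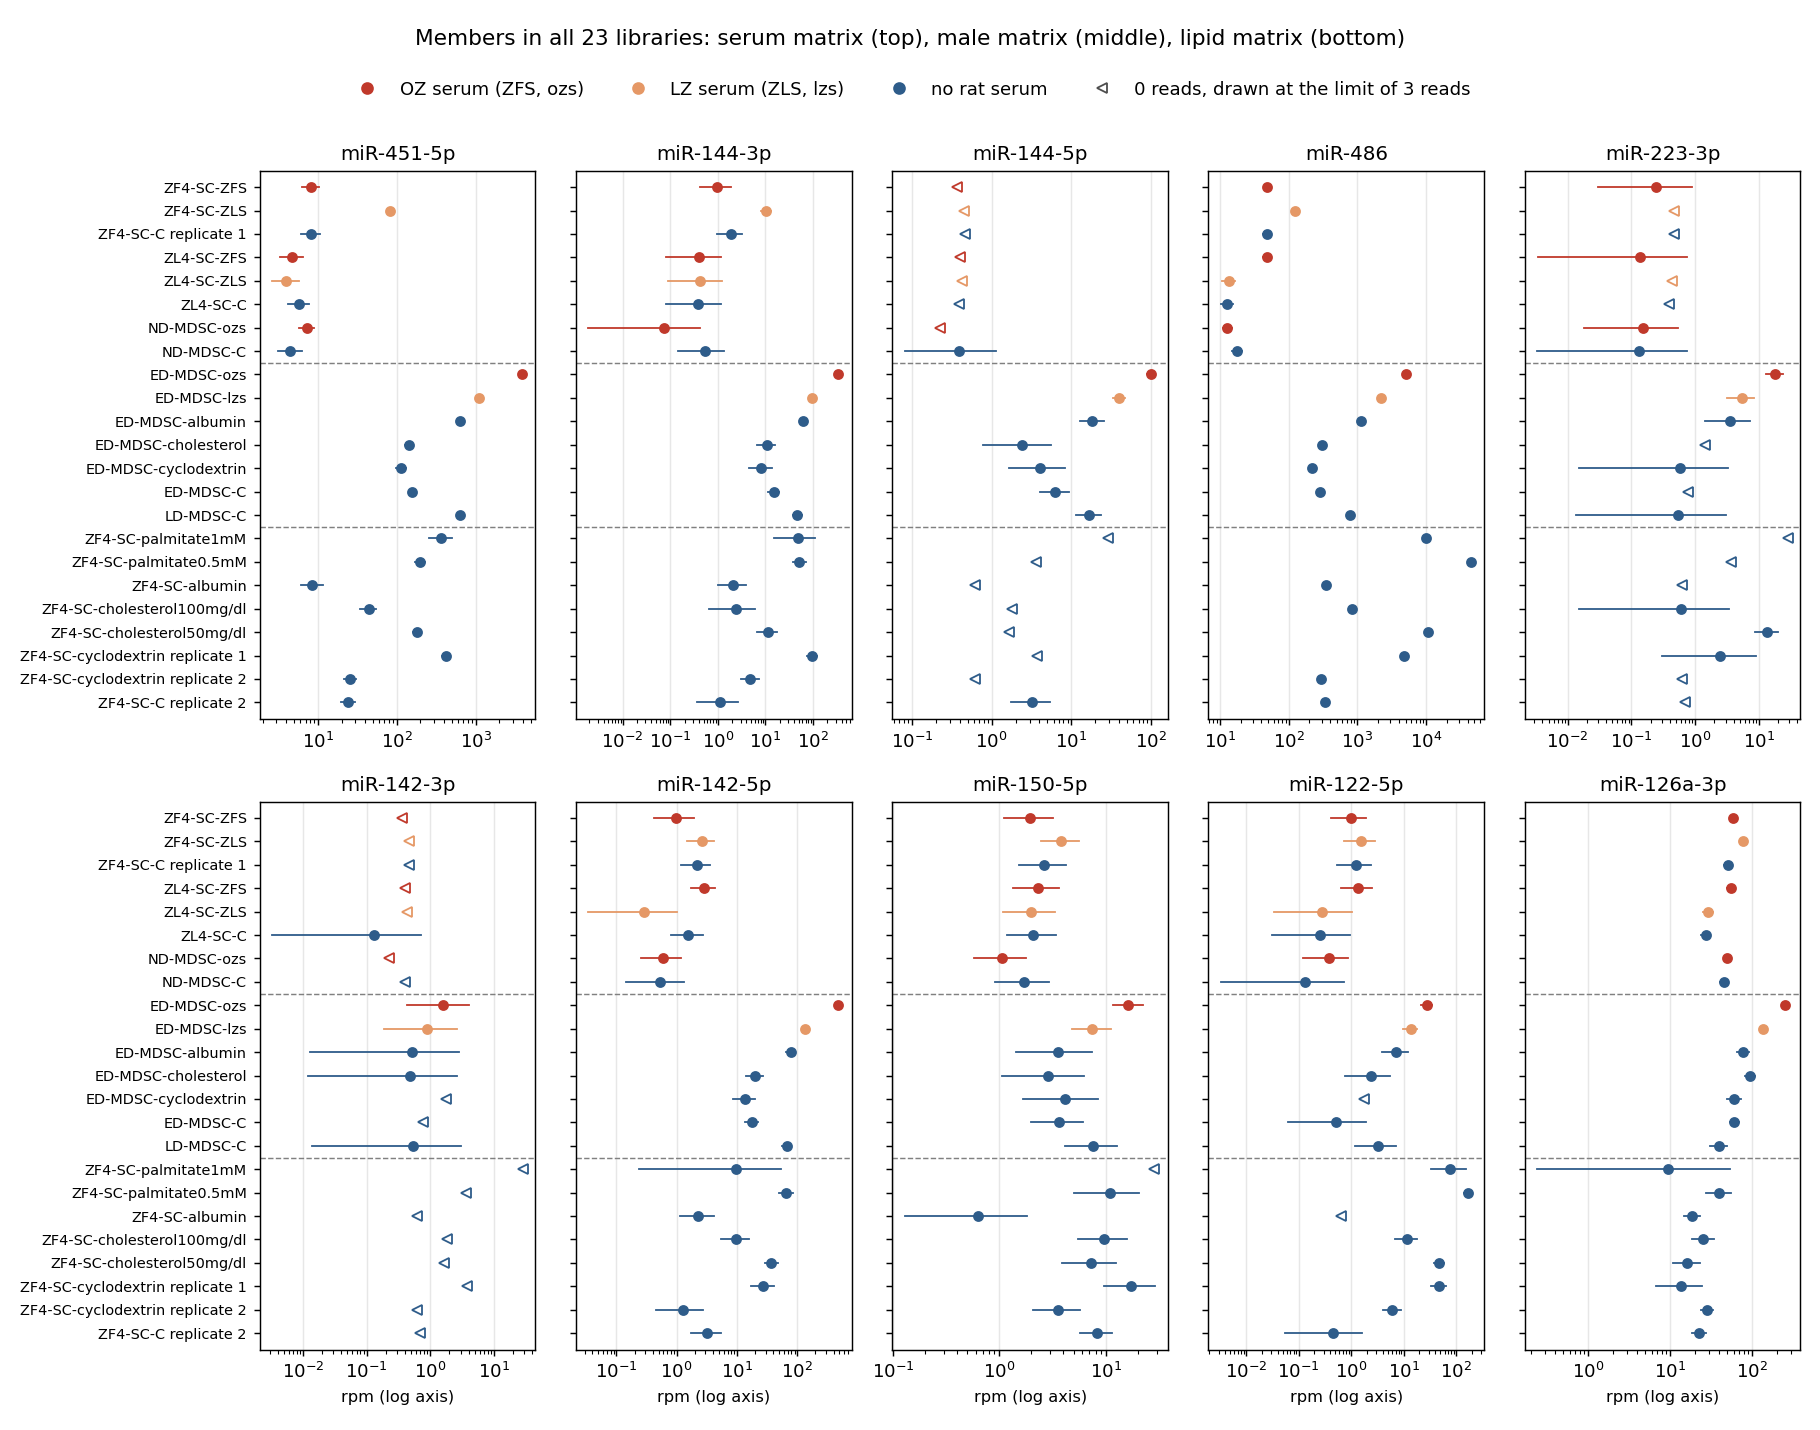
Reads per 1000000 miR reads (rpm, log axis) of the 10 miRs in each of the 23 libraries, with exact 95% counting intervals. Points are coloured by OZ serum, LZ serum or no rat serum, and open triangles stand for 0 reads. The highest level of miR-451-5p is in ED-MDSC-ozs (3882), and that of miR-486 in ZF4-SC with palmitate at 0.5 mM (45396), which had no rat serum.

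The summed level of the 10 miRs was higher with rat serum than in C in ED-MDSC, ZF4-SC given ZLS and ZL4-SC given ZFS, and close to C in the other 3 serum libraries. Added together, the 10 miRs made 10242 rpm in ED-MDSC-ozs and 3769 in ED-MDSC-lzs, against 2012 with albumin, 584 with cholesterol, 425 with cyclodextrin and 546 in ED-MDSC-C. In ZF4-SC of the serum matrix they made 121 with ZFS and 304 with ZLS, against 114 in C. In ZL4-SC the sum was 114 with ZFS and 49.5 with ZLS, against 50.0 in C. ND-MDSC had 72.0 with ozs and 71.0 in C. In whole cultures, fewer cells that hold a miR and less of the miR per cell cannot be told apart, nor can RNA inside cells be told from RNA left on them. All levels are raw reads per 1000000 reads of the library, and their intervals cover counting error only.

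Among the erythroid miRs, miR-451-5p had 3882 rpm in ED-MDSC-ozs and 1111 in ED-MDSC-lzs. Without rat serum it had 636 in ED-MDSC with albumin, 144 with cholesterol, 115 with cyclodextrin and 158 in C, so both serum libraries lay above all 4 others, as they did for 47.2% of the 271 miRs measured there. In raw reads this was 9751 with ozs and 3705 with lzs, against 606 in C, the deepest library of that matrix. In the serum matrix it stayed under 10 rpm in 7 of the 8 libraries. The exception was ZF4-SC-ZLS with 83.0 (544 reads), against 8.15 in ZF4-SC-ZFS (67 reads) and 8.16 in ZF4-SC-C (53 reads). Over its C, ZF4-SC-ZLS had a ratio of 10.2 (exact 95% interval 7.66 to 13.8), rank 1 among the 285 miRs of that pair. The other ratios of the serum matrix were 1.62 in ND-MDSC-ozs, 0.999 in ZF4-SC-ZFS, 0.825 in ZL4-SC-ZFS and 0.697 in ZL4-SC-ZLS, and only that of ND-MDSC-ozs had an interval that excluded 1 (1.08 to 2.47).

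Both arms of miR-144, the clustered partner of miR-451, were likewise highest with ozs, then with lzs, then with albumin in ED-MDSC. miR-144-3p, whose seed is ACAGUAU, had 332 rpm with ozs and 93.5 with lzs, against 62.8 with albumin, 10.6 with cholesterol, 8.23 with cyclodextrin and 15.1 in C. miR-144-5p had 101 with ozs and 40.2 with lzs, against 18.4 with albumin, 2.40 with cholesterol, 4.11 with cyclodextrin and 6.25 in C. For neither arm did the ED-MDSC libraries with and without rat serum overlap, as for 47.2% of the 271 miRs in that direction. In ZF4-SC, miR-144-3p had 8 reads with ZFS and 68 with ZLS, against 12 in C, which made ratios of 0.527 (0.187 to 1.40) and 5.62 (3.02 to 11.4). miR-144-5p had 0 reads in all 6 female libraries of the serum matrix, ZF4-SC-ZLS included, where 0 allows up to 0.458 rpm. The 3p over 5p ratio was 2.0 to 4.4 in the 7 libraries of the male matrix.

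miR-486, the erythrocyte miR that striated muscle also makes, held about as many reads as the other 9 members together in the male matrix, 49.0 to 59.1% of the sum. It had 5144 rpm in ED-MDSC-ozs and 2226 in ED-MDSC-lzs, against 1124 with albumin, 308 with cholesterol, 220 with cyclodextrin and 284 in C. In the serum matrix it was higher in ZF4-SC-ZLS (125) than in ZF4-SC-ZFS (48.3) or ZF4-SC-C (48.1). In ZL4-SC the order was turned, with 47.5 in ZL4-SC-ZFS and 13.4 in ZL4-SC-ZLS, against 12.7 in C. ND-MDSC had 12.8 with ozs and 17.6 in C. The ratio to C was thus 2.59 (2.27 to 2.97) in ZF4-SC-ZLS and 3.73 (2.98 to 4.72) in ZL4-SC-ZFS, where miR-451-5p was at 0.825 (0.513 to 1.32).

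The leukocyte miRs were scarce in the serum matrix. In the lipid matrix, which had no rat serum, their levels varied. There miR-142-5p ran from 1.26 to 65.3 rpm, miR-223-3p from 0 to 13.4 (24 reads) and miR-150-5p from 0 to 17.4 (14 reads). miR-142-5p had 467 rpm with ozs and 136 with lzs in ED-MDSC, against 78.1 with albumin, 19.7 with cholesterol, 13.5 with cyclodextrin and 17.7 in C. In the serum matrix it had 2 to 21 reads per library, with medians of 0.973 rpm in the 5 serum libraries and 1.56 in the 3 C. miR-142-3p, the other arm, had 4 reads with ozs and 3 with lzs in ED-MDSC, and 0 or 1 in each of the 21 other libraries, so that no comparison of it was possible. The 5p arm exceeded the 3p arm by 293 to 1 with ozs (1173 and 4 reads). miR-223-3p had 45 reads with ozs and 18 with lzs in ED-MDSC, against 7 with albumin, 0 with cholesterol, 1 with cyclodextrin and 0 in C. Set against the limit of 3 reads in C, it was at least 22.9-fold higher with ozs and at least 6.91-fold higher with lzs. In the serum matrix it had 0 to 2 reads. miR-150-5p, which marks lymphocytes, had 16.3 rpm with ozs and 7.50 with lzs in ED-MDSC, against 3.57 with albumin, 2.88 with cholesterol, 4.11 with cyclodextrin and 3.65 in C. In the serum matrix it had 1.05 to 3.82 with serum and 1.71 to 2.62 in C, and these ranges overlapped.

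The liver miR and the endothelial miR differed in their level without serum. miR-122-5p had 70 reads with ozs and 45 with lzs in ED-MDSC (27.9 and 13.5 rpm), against 14 with albumin, 5 with cholesterol, 0 with cyclodextrin and 2 in C. Over the 2 reads of C, the ratio was 53.5 (14.3 to 451) with ozs and 25.9 (6.77 to 220) with lzs. In the serum matrix it had 2 to 10 reads with serum and 1 to 8 in C, including 10 in ZL4-SC-ZFS against 2 in ZL4-SC-C. miR-126a-3p was measured at 27.1 rpm or more in every library of the serum matrix, C included, and at 39.0 or more in the male matrix. It had 253 rpm with ozs and 136 with lzs in ED-MDSC, against 78.1 with albumin, 93.6 with cholesterol, 60.5 with cyclodextrin and 60.7 in C. Its ratio to C was 4.17 (3.58 to 4.86) with ozs and 2.23 (1.90 to 2.63) with lzs. In the serum matrix the ratio was 2.02 (1.70 to 2.40) in ZL4-SC-ZFS and 1.55 (1.35 to 1.79) in ZF4-SC-ZLS, and from 1.07 to 1.17 in the other 3.

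**Figure D2:**
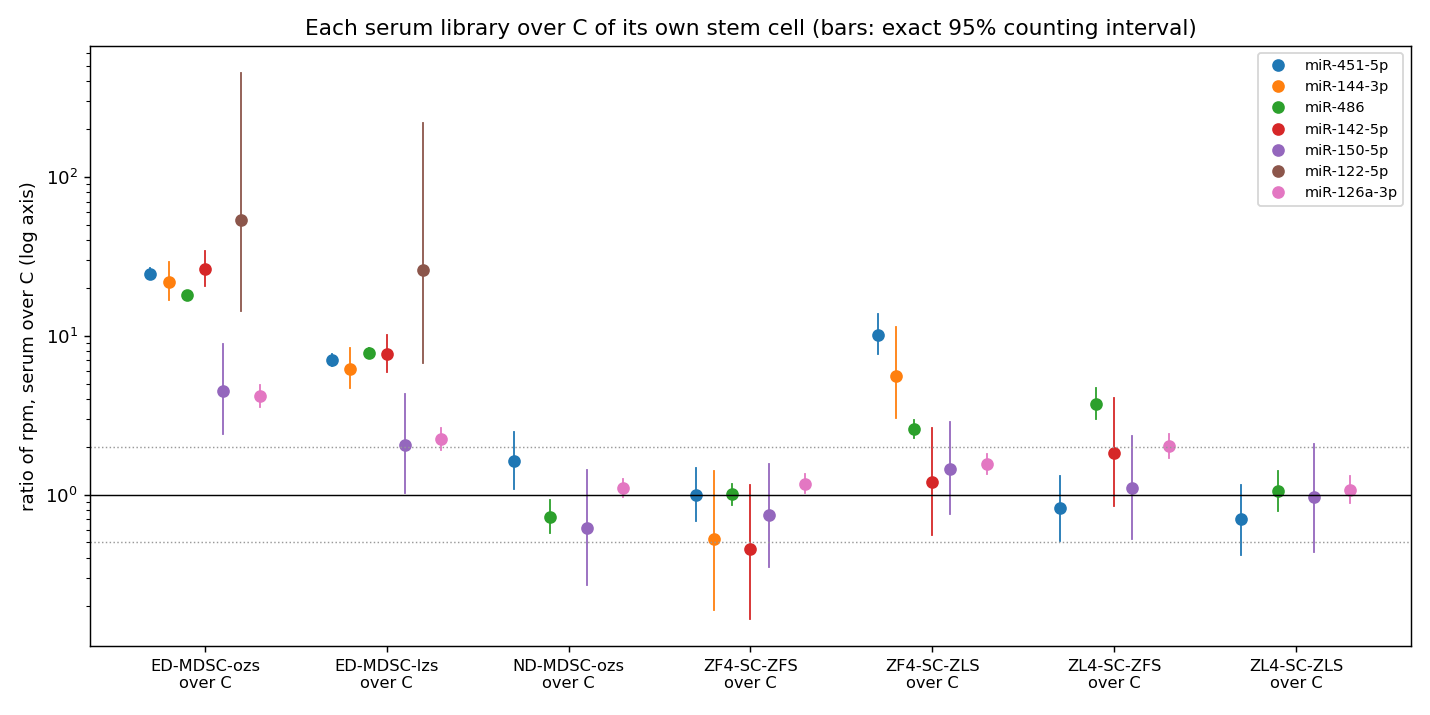
Ratio of rpm of each serum library to C of its own stem cell (log axis), for 7 of the miRs, each drawn in those pairs where its 2 libraries averaged 10 reads or more. Bars are exact 95% counting intervals and dotted lines mark 2 and 0.5. The ED-MDSC points lie at 2.06 and above, whereas in the serum matrix only ZF4-SC-ZLS (miR-451-5p, miR-144-3p, miR-486) and ZL4-SC-ZFS (miR-486, miR-126a-3p) exceed 2.

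Counted by a ratio of at least 2, and only among miRs that averaged 10 reads or more over both libraries of a pair, 9 of 9 members passed in ED-MDSC-ozs over C, where 38.5% of all miRs did, and 8 of 8 in ED-MDSC-lzs, where 34.7% did. Of these, miR-122-5p in both pairs and miR-223-3p with ozs had 0 or 2 reads in C and passed the filter only through the serum library, so that their ratio had to exceed 2. Among miRs with at least 10 reads in ED-MDSC-C, a filter added after the data were seen, 7 of 7 members passed with ozs (34.0% of all miRs) and 7 of 7 with lzs (30.2%). In ZF4-SC-ZLS 3 of 6 members passed (5.26% of all miRs), and in ZL4-SC-ZFS 2 of 5 (17.9%). None passed of 6 in ZF4-SC-ZFS (6.09%), of 4 in ZL4-SC-ZLS (4.14%) and of 4 in ND-MDSC-ozs (6.41%). With TMM library sizes in place of column totals, 9 of 9 passed in ED-MDSC-ozs (18.8% of all miRs), 6 of 8 in ED-MDSC-lzs (16.2%), without miR-150-5p and miR-126a-3p, 3 of 6 in ZF4-SC-ZLS (3.51%) and, in ZL4-SC-ZFS, 1 of 5 (6.72%), without miR-126a-3p. These ratios rest on 1 library each side and have no test.

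Across the 4 stem cells that had both, the 7 serum libraries and the 4 C were compared in edgeR with the stem cell as a block, over the 300 miRs that averaged 10 reads or more. None of the 8 members tested was called at an adjusted p under 0.05, and neither was any other miR (0.0% of 300 in either direction; 5 miRs higher and 17 lower at an unadjusted p under 0.05; 0 called by DESeq2). With no filter on low counts 21 miRs were called, among them miR-451-5p and miR-486, with log2 fold changes of 1.45 ± 0.38 and 1.23 ± 0.35 (SE, adjusted p = 0.0097 and 0.0269 in edgeR). miR-223-3p and miR-142-3p were below the filter, and miR-144-5p and miR-122-5p passed it through the ED-MDSC serum libraries. All 8 members had a log2 fold change above 0, with a median of 1.16 where that of all miRs was -0.04. The log2 fold change was 1.67 ± 0.79 (SE) for miR-122-5p, 1.34 ± 0.80 for miR-451-5p, 1.25 ± 0.95 for miR-144-3p, 1.08 ± 0.54 for miR-486 and 0.54 ± 0.26 for miR-126a-3p, with adjusted p from edgeR of 0.578 to 0.730. For miR-144-5p it was 1.49 ± 1.53, for miR-142-5p 0.67 ± 0.81 and for miR-150-5p 0.13 ± 0.40, with adjusted p of 0.862 to 0.974. These values turned on single C libraries, and the lowest value of each of the 8 came without ED-MDSC-C. Leaving out 1 library at a time, the log2 fold change of miR-451-5p ran from 0.71 to 2.31 (without the C of ZL4-SC), that of miR-122-5p from 0.68 to 2.80 (without the C of ZF4-SC), that of miR-144-3p from 0.30 to 1.89 and that of miR-486 from 0.51 to 1.56 (both without the C of ND-MDSC), none of them called. No member, and none of the 300 miRs, had all 7 serum libraries above all 4 C.

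Within the male matrix alone, the 2 ED-MDSC libraries with rat serum were set against the 4 without, a comparison added after the levels were seen. In edgeR 9 of 9 members tested rose, where 24.0% of the 271 miRs rose and 27.7% fell. The largest value was that of miR-223-3p (log2 fold change 3.14 ± 1.02), followed by miR-451-5p (2.77 ± 0.71), miR-142-5p (2.76 ± 0.69), miR-144-5p (2.68 ± 0.64) and miR-144-3p (2.66 ± 0.77). It was 2.63 ± 0.83 for miR-122-5p, 2.45 ± 0.62 for miR-486, 1.21 ± 0.41 for miR-150-5p and 0.92 ± 0.27 for miR-126a-3p, and the adjusted p of the 9 ran from 0.0099 to 0.0381. miR-223-3p, miR-150-5p and miR-122-5p averaged under 10 reads in the 4 libraries without serum and so passed the filter through the serum libraries. The calls turned on ED-MDSC-ozs. Without it 1 library with serum was left, and the log2 fold change of all 8 members tested was lower (0.44 to 2.06). With C as the only library without serum, the log2 fold change was larger than against all 4 for 8 of the 9 members. That fit had 1 library on the side without serum, so only the size of the change is given. A larger value there is not a stronger result. It was 3.32 ± 0.87 for miR-451-5p and 3.05 ± 0.60 for miR-486, the exception being miR-150-5p (1.05 ± 0.77). Leaving out 1 of the 4 libraries without serum left 8 of 9 members called (albumin), 6 (C), 6 (cyclodextrin) or 5 (cholesterol). Each of these fits called between 109 and 125 of all miRs, higher and lower together. miR-451-5p, miR-144-5p, miR-486 and miR-142-5p stayed called in each of them, and miR-150-5p only in the fit without C. All 9 had groups that did not overlap, as had 47.2% of the 271 miRs in that direction. With column totals in place of TMM the median of all miRs moved to 0.43, where it was -0.06 with TMM, and 105 miRs were called higher and 43 lower, where TMM gave 65 and 75, with the 9 members called higher under both.

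Within the serum matrix alone, with 5 serum libraries and 3 C in 3 stem cells, none of the 6 members tested and none of 291 miRs was called (0.0%). The log2 fold change was 0.85 ± 0.71 for miR-451-5p, 0.71 ± 0.46 for miR-486, 0.54 ± 0.31 for miR-126a-3p and 0.38 ± 0.94 for miR-144-3p, while miR-142-5p and miR-150-5p lay at -0.02 ± 0.71 and -0.03 ± 0.42. The difference of the serum effect, male matrix minus serum matrix, was tested in the fit of 11 libraries, likewise after the levels were seen. No member was called (adjusted p 0.0900 to 0.534), where 1.0% of the 300 miRs were called higher and 7.33% lower, but without ZL4-SC-ZFS miR-486 was (2.86 ± 0.72, adjusted p = 0.0468). Its value was 3.67 ± 1.17 for miR-142-5p, 3.93 ± 1.31 for miR-122-5p, 2.55 ± 0.84 for miR-486 and 2.63 ± 1.42 for miR-451-5p. Set by sex instead, female minus male, again no member or other miR was called (0.0% of 300; 9 higher and 6 lower at an unadjusted p under 0.05; DESeq2 was not run), with -1.74 ± 1.49 for miR-451-5p and -3.27 ± 1.30 for miR-122-5p. Sex, muscle, isolation, the donors of the serum and, for ED-MDSC, the matrix cannot be told apart there.

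**Figure D3:**
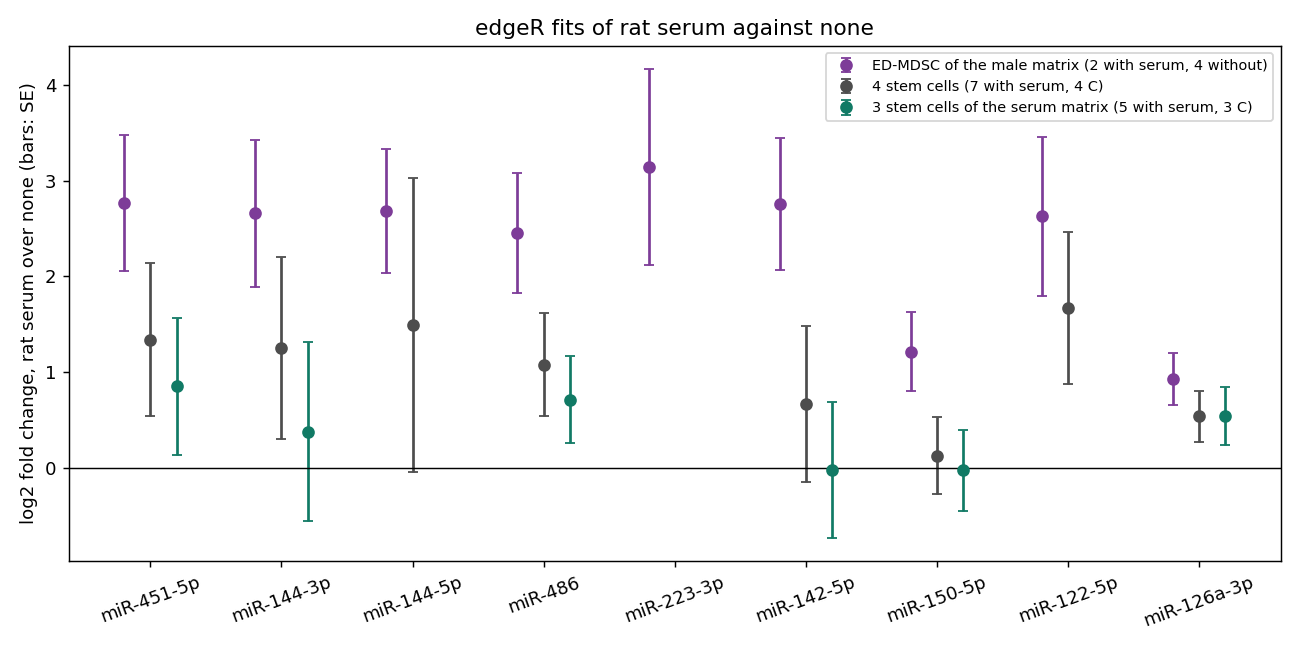
Log2 fold change of rat serum over none from 3 edgeR fits, for the members each fit tested; bars are SE. The 9 points of ED-MDSC lie between 0.92 and 3.14, and those of the serum matrix between -0.03 and 0.85.

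The 2 kinds of serum did not order the members alike in the 3 stem cells that had both. In ED-MDSC, ozs over lzs had a ratio of at least 2 for 8 of 9 members (15.0% of all miRs), from 3.55 (3.11 to 4.05) for miR-144-3p and 3.49 (3.36 to 3.63) for miR-451-5p to 1.87 (1.65 to 2.11) for miR-126a-3p. In ZF4-SC, ZFS over ZLS was at most 0.5 for 4 of 6 members, where 40.2% of all miRs were, with 0.0982 (0.0750 to 0.127) for miR-451-5p and 0.0938 (0.0389 to 0.195) for miR-144-3p. In ZL4-SC, ZFS over ZLS was at least 2 for 2 of 5 members (10.8% of all miRs), miR-486 with 3.56 (2.82 to 4.51) and miR-142-5p with 9.94 (2.43 to 87.5), the second of which had 21 reads against 2 and passed the filter only through ZL4-SC-ZFS. In edgeR, over the 11 libraries, no member and no other miR was called between OZ and LZ serum (0.0% of 300; 4 higher and 5 lower at an unadjusted p under 0.05; 0 by DESeq2). The log2 difference was -0.26 ± 1.01 for miR-451-5p, -0.34 ± 1.03 for miR-144-3p and 0.47 ± 0.62 for miR-486, each smaller than its error. Without ED-MDSC those of miR-451-5p and miR-144-3p were -1.42 ± 0.91 and -2.08 ± 0.84 (adjusted p 0.669 and 0.663), and without ZF4-SC they were 1.01 and 0.77.

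Against C, neither kind of serum gave a called member. For OZ serum 0.0% of 300 miRs were called in edgeR, with 10 higher and 21 lower at an unadjusted p under 0.05 and 5 called by DESeq2, none of them a member. For LZ serum 0.0% were called, with 3 higher and 3 lower at an unadjusted p under 0.05 and 0 by DESeq2. OZ serum had a log2 fold change of 2.02 ± 0.84 for miR-122-5p and 0.72 ± 0.27 for miR-126a-3p, the only members with an unadjusted p under 0.05 (adjusted p 0.428 for each). For LZ serum the members lay between -0.09 ± 0.92 for miR-142-5p and 1.48 ± 1.01 for miR-451-5p.

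Libraries with no rat serum also differed widely in these miRs. ED-MDSC with albumin had 636 rpm of miR-451-5p against 158 in ED-MDSC-C, a ratio of 4.03 (3.65 to 4.45). Of 7 members measured there, 5 had a ratio of at least 2, where 9.09% of all miRs did, namely miR-451-5p, both arms of miR-144, miR-486 and miR-142-5p. With cyclodextrin and with cholesterol 0 of 7 did (6.77% and 9.29% of all miRs). LD-MDSC-C over ED-MDSC-C had such a ratio for 6 of 7 members (12.8% of all miRs), with 4.00 (3.63 to 4.42) for miR-451-5p and 3.79 (2.80 to 5.18) for miR-142-5p, and 0.643 (0.487 to 0.841) for miR-126a-3p. Across the matrices, C of the male matrix was above C of the serum matrix for most members. miR-451-5p had 158 rpm in ED-MDSC-C and 632 in LD-MDSC-C, against 4.48 in C of ND-MDSC, 8.16 in that of ZF4-SC and 5.71 in that of ZL4-SC. The second ZF4-SC-C, of the lipid matrix, had 24.3, and its miR-486 was 7.02 (6.21 to 7.95) times that of the first.

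In the lipid matrix miR-486 had 45396 rpm with palmitate at 0.5 mM, 9771 with palmitate at 1 mM, 10615 with cholesterol at 50 mg/dl and 4713 in the first cyclodextrin library. It had 845 with cholesterol at 100 mg/dl, 292 in the second cyclodextrin library, 354 with albumin and 337 in C. The cyclodextrin duplicates, which had 1 treatment, held 803975 and 4770210 reads. The 3 deepest libraries of that matrix (4395515 to 4783062 reads) had the lowest levels of miR-486 (292 to 354), where the 5 shallower ones had 845 to 45396. miR-122-5p had 0 to 6.08 rpm in those 3 and 11.5 to 167 in the 5 shallower ones. The part of depth in these levels was not tested. miR-486 in that matrix was 11.2 to 229 times miR-451-5p, where in the male matrix it was 1.24 to 2.14 times.

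In the male matrix, miR-142-5p and miR-144-3p kept nearly 1 ratio to miR-451-5p with or without rat serum, and miR-150-5p and miR-126a-3p did not. miR-142-5p over miR-451-5p was 0.120 with ozs and 0.123 with lzs, against 0.106 to 0.137 in the 5 libraries without. miR-144-3p over miR-451-5p was 0.0854 with ozs and 0.0842 with lzs, against 0.0718 to 0.0987 in those 5. For miR-150-5p the ratio was 0.00420 with ozs and 0.00675 with lzs, against 0.00562 with albumin and 0.0120 to 0.0359 in the 4 others without. For miR-122-5p, on 2 to 70 reads, it was 0.00718 with ozs and 0.0121 with lzs. Both lay within the 0.00330 to 0.0167 of the 4 libraries without serum that had any reads. The counting intervals of those 4 overlapped the intervals with serum, so a changed ratio of miR-122-5p was not shown. For miR-486 too, both serum libraries lay within the range without serum, which was wider (1.24 to 2.14 in the 5 libraries). miR-126a-3p over miR-451-5p was 0.0651 with ozs and 0.122 with lzs, against 0.384 in ED-MDSC-C, 0.528 with cyclodextrin, 0.650 with cholesterol, 0.123 with albumin and 0.0617 in LD-MDSC-C. In ZF4-SC-ZLS miR-144-3p over miR-451-5p was 0.125 and miR-142-5p over miR-451-5p was 0.0312, and the ratio of miR-142-5p to C was 1.20 (0.558 to 2.64).

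**Figure D4:**
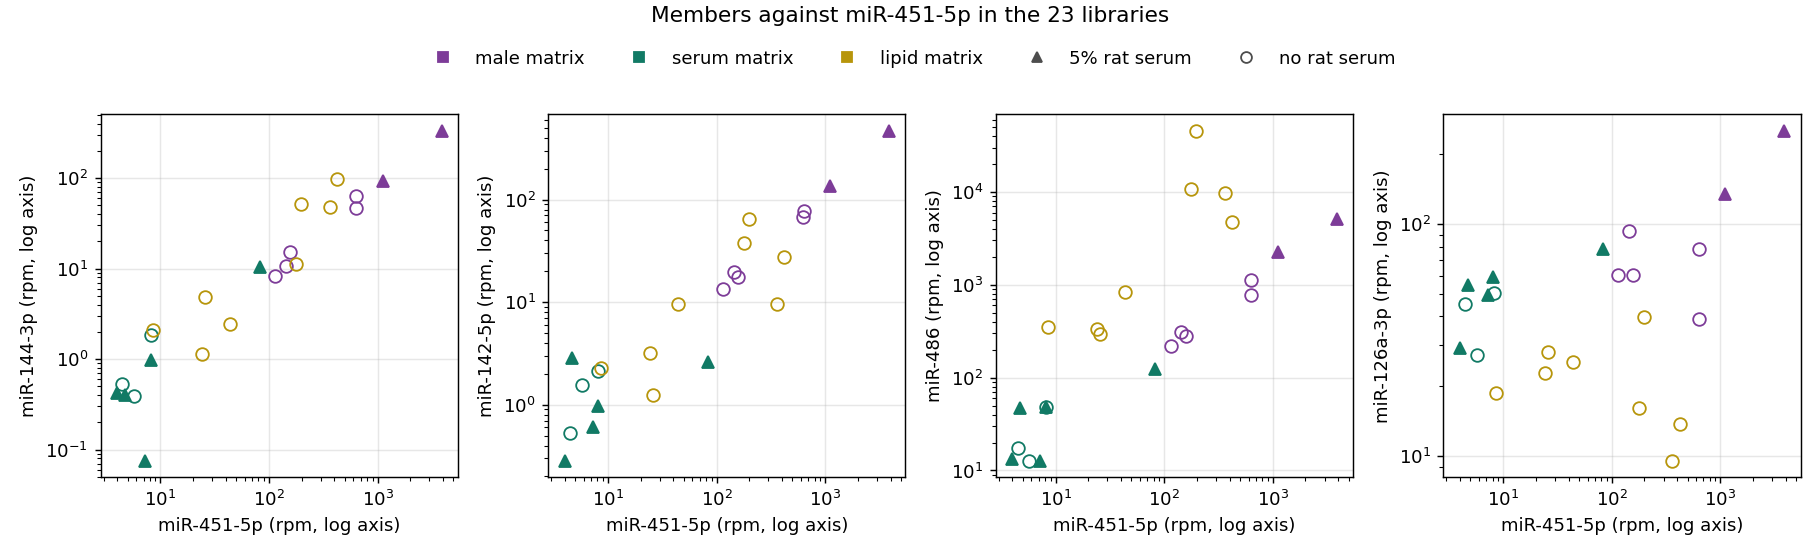
Levels of 4 members against miR-451-5p in the 23 libraries (rpm, both axes log), coloured by matrix, with triangles for rat serum and circles for none; libraries at 0 reads are left out. miR-144-3p and miR-142-5p of the male matrix lie along 1 line, while miR-486 of the lipid matrix lies 11.2 to 229 times above miR-451-5p.

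Other miRs of the same sources did not move as one list. Of 14 further miRs abundant in blood cells, 13 were tested in ED-MDSC, of which 3 rose and 5 fell with rat serum (24.0% and 27.7% of all miRs), with a median log2 fold change of 0.06. miR-363-3p, of the miR-106a cluster, rose most (2.76 ± 0.65, adjusted p = 0.0093 in edgeR). It had 296 rpm with ozs and 92.9 with lzs, against 49.0 with albumin, 12.5 with cholesterol, 11.2 with cyclodextrin and 10.9 in C, again highest with ozs, then with lzs, then with albumin. miR-25-3p rose by 0.66 ± 0.13 and miR-425-5p by 0.54 ± 0.18. Those that fell were miR-146a-5p (-4.88 ± 0.43) and miR-155-5p (-0.82 ± 0.20), both known from inflammatory signalling, and miR-342-3p, miR-484 and miR-15b-5p. miR-16-5p and miR-92a-3p, both abundant in erythrocytes, were at 0.10 ± 0.18 and 0.37 ± 0.26 (adjusted p 0.678 and 0.264). Across the 4 stem cells none of these 13 was called.

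Of 5 further liver-rich miRs, 2 rose in ED-MDSC with rat serum, miR-101a-3p (0.94 ± 0.12) and miR-192-5p (0.47 ± 0.16), and 1 fell, miR-148a-3p (-2.24 ± 0.21). Of 6 other arms and related miRs of the members, 5 were in the matrices, and 2 of these had 0 reads in every library. Only 1 was tested, miR-126a-5p, at 0.29 ± 0.28 in ED-MDSC (adjusted p = 0.438 in edgeR) and 0.34 ± 0.26 across the 4 stem cells (adjusted p = 0.725). miR-223-5p had 14 reads and miR-150-3p 20 in all 23 libraries, and miR-451-3p had 1 in ED-MDSC-lzs and 1 in ND-MDSC-ozs. Of the 6 stromal miRs, 0 rose and 4 fell in ED-MDSC, miR-199a-5p, miR-199a-3p, miR-214-3p and miR-21-5p, and their sum was 338551 and 379241 rpm with rat serum against 378138 to 407111 without. None of these lists had a called miR in the comparison of 7 serum libraries with 4 C. Their part in the members' values was not tested.

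Likeness was taken as the Pearson correlation, over the 11 libraries, of log2 rpm set against the mean of each stem cell, and is a description without a p, since libraries share depth, matrix and stem cell. Among miRs that are not members, most like miR-451-5p were miR-203a-3p (0.91) and miR-425-3p (0.90), and most like miR-144-3p were miR-218a-1-3p (0.93) and miR-16-5p (0.91). Of these non-members, miR-423-5p was most like miR-126a-3p (0.95) and miR-26b-5p most like miR-486 (0.93). Between members the correlation was 0.97 for miR-486 with miR-126a-3p, 0.96 for miR-144-3p with miR-150-5p and 0.85 for miR-451-5p with miR-144-3p. In the 8 libraries of the serum matrix these were 0.94, 0.97 and 0.67. There miR-144-3p had 68 reads in ZF4-SC-ZLS and at most 12 in any other library, so its correlations lean on 1 library. Member pairs in that matrix ran from -0.38 (miR-144-5p with miR-122-5p) to 0.97. As miR-144-5p had 3 reads in ND-MDSC-C and 0 in every other library there, its correlations do not reflect measured levels. The non-members with the smallest adjusted p for rat serum over none were miR-708-3p, miR-708-5p and miR-221-3p among the higher and miR-148a-5p, miR-199a-5p and miR-148a-3p among the lower, with adjusted p from 0.127 to 0.537 in edgeR.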

How the data were processed

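Small RNA of cultured rat MDSC was made into libraries and sequenced by Norgen Biotek. The authors deposited 3 matrices of raw counts, whole numbers of reads for each of the same 792 entries of miRBase (Sanger, Release 18.0). For RNA extraction a Norgen kit is named in the labels and mirVana in the paper, and the aligner and the handling of reads that match several miRs are not given in the sources used here. Samples were grouped by the labels of stem cell, sex and agent, and by the matrix that held them.

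Counts were used as deposited. Levels are reads per 1000000 of the column total (rpm), with exact Clopper-Pearson 95% intervals (scipy 1.17.1) that cover counting error only, and 0 reads allows up to 3. Ratios set single libraries side by side, with no test. Tests used edgeR 4.0.16 quasi-likelihood (R 4.3.3) with TMM factors, a minimum mean of 10 reads, and Benjamini-Hochberg adjusted p under 0.05 over all miRs tested. The 11 libraries of the 4 stem cells that had rat serum were fitted with the stem cell as a block. No condition in them had a replicate, so the spread behind the p-values is not that between cultures of 1 condition alone. It holds differences in response between stem cells and, where rat serum was 1 group, between OZ and LZ serum. In the fit of ED-MDSC alone it holds those between ozs and lzs and among C, albumin, cyclodextrin and cholesterol. Alternatives were column totals, RLE factors, DESeq2 1.42.0, other filters, no block, all 23 libraries, and leaving out libraries or stem cells. The fits for ED-MDSC alone and for the difference between matrices were added after the data were seen. On simulated counts of the 300 miRs, rat serum against none called 83 of 83 miRs changed 4-fold, 43 of 89 changed 2-fold and 5 of 119 unchanged. The simulation gave all miRs 1 dispersion, and all stem cells the same profile and the same serum effect. The members differed between stem cells in both, so it does not show which changes of the members could be missed.

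The members and lists were chosen with earlier results of these data known. Named are the 10 members, the 2 non-members most like each, the 3 non-members of smallest adjusted p in each direction, and called miRs of the lists for blood cells, liver, the member loci, stroma, striated muscle, epithelial and endocrine cells and neurons, with miR-16-5p, miR-92a-3p, miR-126a-5p, miR-223-5p, miR-150-3p and miR-451-3p added. Sequences are from RefSeq (GRCr8).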

Additional observations from a re-analysis of the deposited data

Results flagged for a closer look

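The ratio of miR-451-5p to C pointed one way in both serum libraries of ED-MDSC (24.6 with ozs and 7.04 with lzs) and the other way in both of ZL4-SC (0.825 with ZFS and 0.697 with ZLS, with intervals that include 1). The difference between these stem cells was not tested by itself.

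Levels above those of the matching C also appeared in libraries without rat serum, which the serum comparison does not use. In ED-MDSC with albumin, miR-451-5p had 636 reads per 1000000 (rpm), miR-486 1124, miR-142-5p 78.1, miR-144-3p 62.8 and miR-122-5p 7.14. In the lipid matrix of ZF4-SC, the highest values were 422 rpm for miR-451-5p and 97.0 for miR-144-3p in the first cyclodextrin library. In the library with palmitate at 0.5 mM, miR-486 had 45396, miR-142-5p 65.3 and miR-122-5p 167, and with cholesterol at 50 mg/dl miR-223-3p had 13.4. The part of depth, albumin or the matrix in these levels was not tested.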

How the results depend on the processing

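Each count of miRs called was set against its alternatives. Rat serum against none had 0 called, but 21 with no filter on low counts (miR-451-5p and miR-486 among them) and 4 with all 23 libraries, OZ serum against none 5 with DESeq2, 1 with no filter and 3 with all 23 libraries, LZ serum against none 2 with no filter and 3 with all 23 libraries, and OZ against LZ serum 1 with no filter and 1 in a separate fit. Leaving out 1 library at a time gave 0 to 1 called for rat serum (1 without ZL4-SC-ZFS), 0 to 27 for female minus male (0 unless ND-MDSC-C or ND-MDSC-ozs was left out), 6 (without ED-MDSC-ozs) to 35 (without ZF4-SC-ZFS) for the difference between matrices (25 called, 7 with column totals) and 109 to 125 in ED-MDSC (140 called, 83 where the mean had to reach 100 reads, 29 with C as the only library without serum). There DESeq2 called 8 of 9 members, without miR-150-5p (1.33, adjusted p = 0.0724). The difference between matrices could not be fitted without ED-MDSC-C.

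Directions of log2 fold changes that turned, none of them called, were as follows. With DESeq2, miR-144-5p was at -0.28 for rat serum, -0.23 for OZ serum and -0.35 for LZ serum. Without ED-MDSC, the value of miR-142-5p was -0.020 and that of miR-150-5p -0.028 for rat serum, those of miR-144-3p and miR-150-5p -0.73 and -0.061 for OZ serum, and that of miR-150-5p -0.087 for OZ over LZ serum. For LZ serum, miR-142-5p was at 0.13 with column totals, 2.36 with no replicate block, 0.53 with all 23 libraries, 0.11 without ND-MDSC, 0.66 without ZL4-SC and 0.44 in a separate fit, and miR-150-5p at -0.082 without ZF4-SC. For OZ over LZ serum, miR-451-5p was at 1.16 with no replicate block and 1.01 without ZF4-SC, and miR-144-3p at 1.10 with no block, 0.041 without ND-MDSC and 0.77 without ZF4-SC. The cause was not tested.

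Leaving out 1 library at a time, the log2 fold change for rat serum ran from -0.22 to 1.20 for miR-142-5p, -2.89 to 2.75 for miR-144-5p and -0.20 to 0.37 for miR-150-5p. For OZ serum it ran from -0.75 to 1.94 for miR-144-3p, -3.19 to 3.21 for miR-144-5p and -0.21 to 0.56 for miR-150-5p, and for LZ serum from -0.98 to 0.46 for miR-142-5p, -3.94 to 2.04 for miR-144-5p and -0.29 to 0.23 for miR-150-5p. For OZ over LZ serum it ran from -1.71 to 0.95 for miR-451-5p, -2.37 to 0.63 for miR-144-3p, -5.10 to 1.20 for miR-144-5p, -0.26 to 0.82 for miR-486, -0.0055 to 1.67 for miR-142-5p and -0.36 to 0.39 for miR-150-5p, and for female minus male from -0.62 to 0.023 for miR-126a-3p, -2.22 to 3.28 for miR-144-3p, -2.86 to 4.51 for miR-144-5p, -1.09 to 0.39 for miR-150-5p and -2.19 to 1.06 for miR-486.

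With TMM library sizes the miR-451-5p ratio to C was 15.7 in ED-MDSC-ozs and 4.71 in ED-MDSC-lzs, where column totals gave 24.6 and 7.04. The labels give treatments and C no shared replicate numbers. Without the block by stem cell, fitted for rat, OZ and LZ serum against none and for OZ against LZ serum, 0 were called, as with it. Most members had under 100 reads per library in the serum matrix, and changes of 2-fold there were often within counting error.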

Other observations

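The 6 epithelial and endocrine miRs found in the matrices summed to 11.7 and 12.7 rpm in ED-MDSC with rat serum, against 4.69 to 10.7 in the 4 ED-MDSC libraries without. None passed the filter in ED-MDSC, and 1 was tested across the 4 stem cells, miR-200b-3p, with a log2 fold change of -0.51 ± 0.43 (SE, adjusted p = 0.804 in edgeR). Of the neuronal miRs, miR-124-3p had 4 reads in all 23 libraries, whereas miR-9a-5p reached 147 rpm with rat serum and 160 without, and at 0.76 ± 0.79 was not called across the 4 stem cells (adjusted p = 0.862).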
